A study of Homo sapiens with 4 samples.

Results

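The genes described here are 35 targets of the transcription factor p53, grouped by what their products do: feedback on p53, cell-cycle arrest and growth restraint, DNA repair, death receptors, death effectors and survival factors, and a mixed set of metabolic, redox, secreted and membrane proteins. Members were taken by gene symbol from the array's annotation (TIGAR also by its older symbol C12orf5), and a gene with more than 1 probe set is represented by that with the highest mean signal. Of the 35, 32 have a probe set of their own among 18110 named genes, and 31 of these passed the filter on low signals (at least 1 of the 4 values above 3.08, the table's median), which 13073 genes passed in all. SPATA18 did not pass, TNFRSF10C shares its probe set with LOC254896, and BTG2 and FDXR were matched to no probe set.

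The samples are cultures of MV4-11, an established cell line from a human acute myeloid leukaemia. Each culture carried 1 of 4 short hairpin RNAs: a control against luciferase, a RUNX1 hairpin labelled a moderate knockdown, and 2 RUNX1 hairpins labelled profound (profound 1 and profound 2). All cultures, controls included, received 3 µM doxycycline for 24 hours. RNA of each hairpin was read on 1 whole-transcript array, so no difference below has a replicate check, and no p-values are given. Nothing in the labels says that the cells were exposed to a DNA-damaging agent.

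p53 is held at a low level in unstressed cells mainly by the ubiquitin ligase MDM2, which is itself a p53 target, so that p53 limits its own activity. When DNA is damaged, kinases modify p53, it accumulates, and it binds paired ten-letter half-sites in or near its target genes, which then stop the cell cycle, aid repair or bring on cell death. RUNX1, the factor targeted by the hairpins, is a DNA-binding regulator of blood cell development whose sites have the core TGTGGT or TGCGGT.

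The promoters of 4 members are shown first: MDM2 and DDB2 because they alone among the members' promoters held a pair of p53 half-sites, and PLK3 and TRIAP1 because they differed most from control. The sequences are RefSeq's for assembly GRCh38.p14 and run from 250 bases before to 50 bases from an annotated start, 5′ to 3′ on the gene's own strand. In MDM2 (chr12:68808767-68809066, plus strand, an internal start of the gene) and DDB2 (chr11:47214724-47215023, plus strand) capitals mark paired half-sites with at most 1 mismatch in each and 0 or 1 base between them; DDB2 has 2 overlapping pairs. In PLK3 (chr1:44800127-44800426, plus strand) they mark CATG, a frequent centre of p53 half-sites, and in TRIAP1 (chr12:120446335-120446634, minus strand) the RUNX motif TGTGGT, here on the opposite strand.
MDM2: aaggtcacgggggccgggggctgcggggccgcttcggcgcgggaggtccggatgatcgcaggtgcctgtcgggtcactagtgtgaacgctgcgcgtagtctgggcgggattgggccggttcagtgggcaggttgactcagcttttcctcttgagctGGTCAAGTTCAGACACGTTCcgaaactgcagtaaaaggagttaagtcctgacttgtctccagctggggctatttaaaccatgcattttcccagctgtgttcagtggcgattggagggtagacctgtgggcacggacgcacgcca
DDB2: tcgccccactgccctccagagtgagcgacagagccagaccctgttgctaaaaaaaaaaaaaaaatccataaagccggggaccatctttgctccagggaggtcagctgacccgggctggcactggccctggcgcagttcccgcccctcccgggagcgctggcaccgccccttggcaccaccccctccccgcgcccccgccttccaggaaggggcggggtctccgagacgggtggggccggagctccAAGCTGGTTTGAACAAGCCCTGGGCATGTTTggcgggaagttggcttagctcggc
PLK3: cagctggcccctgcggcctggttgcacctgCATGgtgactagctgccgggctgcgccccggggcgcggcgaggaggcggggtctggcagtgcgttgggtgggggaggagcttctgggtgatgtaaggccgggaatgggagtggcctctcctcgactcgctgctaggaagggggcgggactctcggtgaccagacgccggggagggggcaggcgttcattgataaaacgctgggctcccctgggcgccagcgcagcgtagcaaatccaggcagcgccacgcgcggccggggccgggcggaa
TRIAP1: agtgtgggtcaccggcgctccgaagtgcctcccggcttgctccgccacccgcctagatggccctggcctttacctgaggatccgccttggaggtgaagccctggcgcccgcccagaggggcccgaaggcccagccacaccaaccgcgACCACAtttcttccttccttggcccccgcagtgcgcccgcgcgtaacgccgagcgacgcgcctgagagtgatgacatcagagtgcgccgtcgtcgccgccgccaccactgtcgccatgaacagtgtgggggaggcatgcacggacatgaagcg

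The promoter table matched 27 of the 35 members, with 39 windows because some genes have several starts, and windows of 1 gene can overlap. Exact p53 half-sites, searched by the published consensus, which reads alike on both strands, were in 7 of the 39 windows (17.9%) and in 6.63% of all 35116 windows. They lay in PLK2, DDB2, FAS, AEN, RPS27L, SESN1 and FDXR. Paired half-sites were in 3 windows (7.69%), of which 2 are overlapping windows of MDM2 and the other is of DDB2, against 0.834% of all windows. The paired search was added after values and matches were seen, so its share is a description only. CATG, which half-sites can contain, was in 12 (30.8%) against 54.9%. The RUNX motif TGTGGT, on either strand, was in 4 windows (10.3%), those of PPM1D, ZMAT3, TRIAP1 and GDF15, against 13.1% of all, and TGCGGT in 1 (2.56%), of SESN1, against 7.29%. PLK3 held neither a half-site nor a RUNX motif in its window.

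The 4 arrays had medians of 3.07 to 3.09 log2 units. RUNX1 shares its probe set with LOC100506403. It read 4.27, 4.33, 4.07 and 4.04 in control, moderate, profound 1 and profound 2, in that order, and each difference from control was within the robust SD of genes of like level (0.22 to 0.28). The arrays are therefore named by their labels, and directions are directions between labels; the description fields of the profound arrays name RUNX2 and RUNX3, whereas titles and genotypes name RUNX1. Of 9 markers of a monocytic leukaemia line, 7 have a probe set, and PTPRC, FLT3, LYZ, MPO, CSF1R and ITGAM read above the table median in all 4 arrays. Of the erythroid, T and NK, B, fibroblast and epithelial markers, 25 have a probe set and 8 read above it in all 4. These were EPOR, KLF1, NKG7, CD8A, CD79A, COL1A1, KRT8 and KRT18. NKG7 (6.41 to 6.87) and EPOR (5.49 to 5.72) read above MPO (5.10 to 5.48) in each array, so this cut alone does not separate cell types.

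The p53 target genes as a group lay close to control in every array. In the array labelled moderate, their median difference from control was 0.02 log2 units (0.01 over all tested genes), and 0 of 31 differed by 1.5-fold (0.58 log2 units), where 0.956% of all tested genes were higher and 0.505% lower at that size. In profound 1 the median was -0.10, with none higher and 2 lower, PLK3, a stress-responsive polo-like kinase gene, and TRIAP1, whose small mitochondrial product restrains apoptosis. Among all tested genes 2.76% were higher and 4.05% lower in that array. In RNA of whole cultures, fewer cells that express a gene and less RNA per cell cannot be told apart. In profound 2 the median was -0.04, and 0 members passed in either direction (1.26% and 1.14% of all genes). No member differed by 1.5-fold in both profound arrays in the same direction, a size reached by 0.344% of genes upward and 0.344% downward. At a smaller size, 0.32 log2 units (a ratio of 5 to 4), 1 member was lower and 2 were higher in moderate (4.69% and 6.16% of all genes), 8 were lower and 3 higher in profound 1 (25.8% and 9.68% of members, 13.2% and 11.8% of all genes), and 4 were lower and 2 higher in profound 2 (12.9% and 6.45%, against 6.71% and 7.35%). FAS was the 1 member lower at that size in both (2.55% of all genes), and none was higher in both (3.09%).

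**Figure D1:**
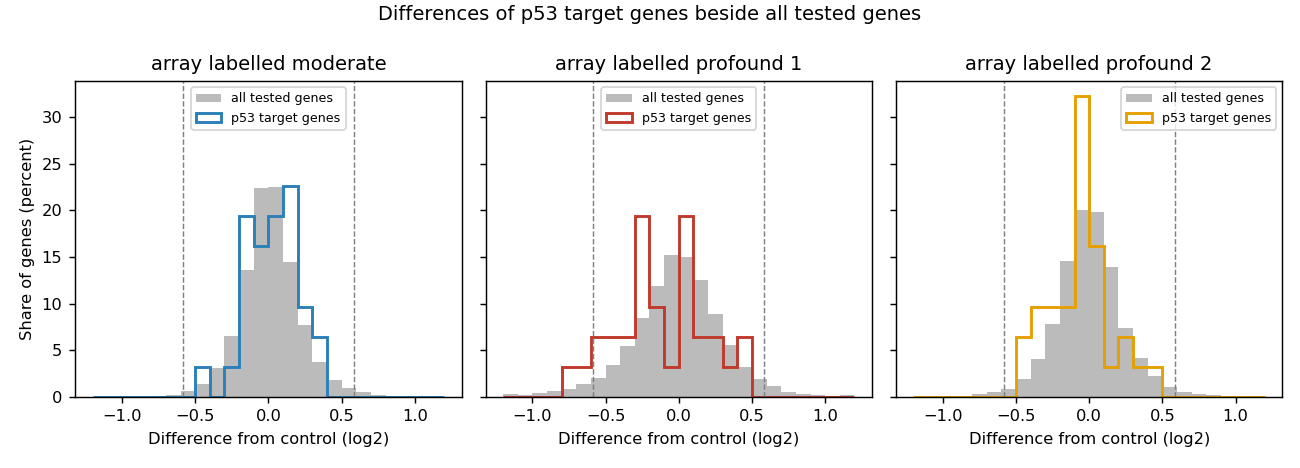
Difference from the control array in log2 units (horizontal axis) for the 31 p53 target genes (coloured outline) and all 13073 tested genes (grey), as the percentage of genes in bins of equal width (vertical axis); genes beyond the plotted range are in the end bins, and dashed lines mark 1.5-fold. The members sit within the bulk of all genes in the 3 arrays, and 2 of them lie beyond the lower dashed line in profound 1.

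The yardstick for a single gene is the robust SD of the same difference among tested genes of like signal, in 6 classes of mean level. It holds array noise and real differences together. Shares of a class are given below as the percentage of its genes that lay at least as far from the comparison array in the same direction.

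Among the feedback genes, MDM2, PPM1D, CCNG1 and MDM4 stayed within 1.5-fold across the 4 arrays. MDM2, the ligase that degrades p53, read 8.90 in control, 8.92 in moderate, 8.69 in profound 1 and 8.68 in profound 2. Both profound arrays thus read below the other pair, with differences from control of -0.21 and -0.22 log2 units (1.16-fold and 1.17-fold). For genes this bright, 21.6% were as low in profound 1 and 5.42% in profound 2, where the spreads were 0.22 and 0.13. MDM4, a relative of MDM2 that blocks p53 without degrading it, read 7.86, 7.97, 8.16 and 7.80 in the same order. It was highest in profound 1, where MDM2 read below control within its spread, and the array stood 0.36 above profound 2 (2.71% of its class as high). PPM1D, a phosphatase that turns off p53 and its kinases, stayed between 7.40 and 7.50, and CCNG1, the cyclin that brings a phosphatase to MDM2, between 8.36 and 8.47.

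TP53INP1, a nuclear stress protein that promotes p53 phosphorylation, had the widest range of any member, 0.88 log2 units. It read 4.77 in control, 4.36 in moderate, 5.24 in profound 1 and 4.86 in profound 2. The value was lowest in moderate and highest in profound 1. The difference between those arrays was 1.84-fold, which 0.505% of the 2179 genes in its class reached, while from control it was -0.40 in moderate and 0.47 in profound 1, short of 1.5-fold. It was the 1 member at least 1.5-fold higher in profound 1 than in moderate, where 1.76% of all tested genes were.

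Among the arrest and growth genes, PLK3 read 5.26 in control, 5.30 in moderate, 4.61 in profound 1 and 5.26 in profound 2. Profound 1 alone stood apart, at -0.66 log2 units from control (1.58-fold lower), -0.69 from moderate and -0.65 from profound 2, where the spreads for its class were 0.28, 0.26 and 0.28. Of its class, 2.43%, 2.29% and 1.65% were as low in these comparisons. A second probe set assigned to both BTBD19 and PLK3 read 3.55, 3.11, 3.30 and 3.67, so its lowest value was in moderate, and its difference in profound 1 was smaller. PLK2, a related kinase gene, read 5.16, 5.31, 4.87 and 5.07, also lowest in profound 1, where the difference of -0.29 was near its spread of 0.28.

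ZMAT3, an RNA-binding zinc finger protein that restrains growth, ran the other way. It read 5.93 in control, 6.27 in moderate, 6.39 in profound 1 and 5.94 in profound 2. It was above control by 0.34 and 0.46 in moderate and profound 1 (3.95% and 5.28% of its class as high) and level with it in profound 2. GADD45A, a stress protein that binds cell-cycle kinases, read 6.41, 6.25, 6.17 and 6.25. It was highest in control, with differences of -0.16, -0.24 and -0.16 where the spreads were 0.16, 0.28 and 0.18.

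The repair genes split. DDB2, which recognises ultraviolet lesions and whose promoter above holds the paired half-sites, read 7.76 in control, 7.79 in moderate, 7.46 in profound 1 and 7.42 in profound 2. As for MDM2, both profound arrays read below the other pair, here at -0.30 and -0.34 from control (16.8% and 3.44% of its class as low). XPC, its partner in lesion recognition, read 7.10, 7.29, 7.45 and 7.30 and so was lowest in control, with 8.63% of its class as high in profound 1. POLH, the translesion polymerase eta, read 7.21, 7.08, 6.79 and 7.17, lowest in profound 1 (-0.42, 10.4% of its class). RRM2B, the p53-inducible subunit of ribonucleotide reductase, read 8.20, 8.22, 8.09 and 7.99, with a difference of -0.21 in profound 2.

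Death receptors carry the signal of FAS ligand or TRAIL into the cell, and their genes differed in direction among themselves. FAS read 4.98 in control, 5.10 in moderate, 4.41 in profound 1 and 4.61 in profound 2. Both profound arrays read below control and moderate. From control the differences were -0.57 (1.48-fold, just short of the size rule; 4.22% of its class) and -0.37 (7.07%). From moderate they were -0.69 and -0.49. EDA2R, a receptor for an ectodysplasin, read 6.09, 6.43, 5.85 and 5.66, again highest in moderate and below control in both profound arrays. It stood at -0.24 from control in profound 1, within its spread of 0.28 (19.9% of its class as low). In profound 2 it stood at -0.43 from control (2.2%). In profound 2 it was 1.71-fold below moderate, which 0.505% of its class reached, and it was the 1 member past 1.5-fold there, where 1.71% of all genes were lower; none was higher (1.16%).

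The TRAIL receptors differed from one another. TNFRSF10A and TNFRSF10B, which signal death, read 5.38, 5.62, 5.28 and 5.75, and 6.32, 6.25, 6.49 and 6.61. Both were highest in profound 2, by 0.36 and 0.29 over control (5.87% and 5.92% of their classes as high). TNFRSF10D, a decoy receptor that binds TRAIL without a full death domain, read 6.33, 6.51, 6.34 and 5.93. It was lowest in profound 2, at -0.40 from control (2.98% of its class) and -0.58 from moderate, just short of 1.5-fold, the reverse of both signalling receptors. The probe set shared by TNFRSF10C, the other decoy, read 4.66, 4.80, 4.77 and 4.91 and is not specific to it. The 4 TRAIL receptor genes are close relatives, and how far their probes can be told apart was not tested.

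**Figure D2:**
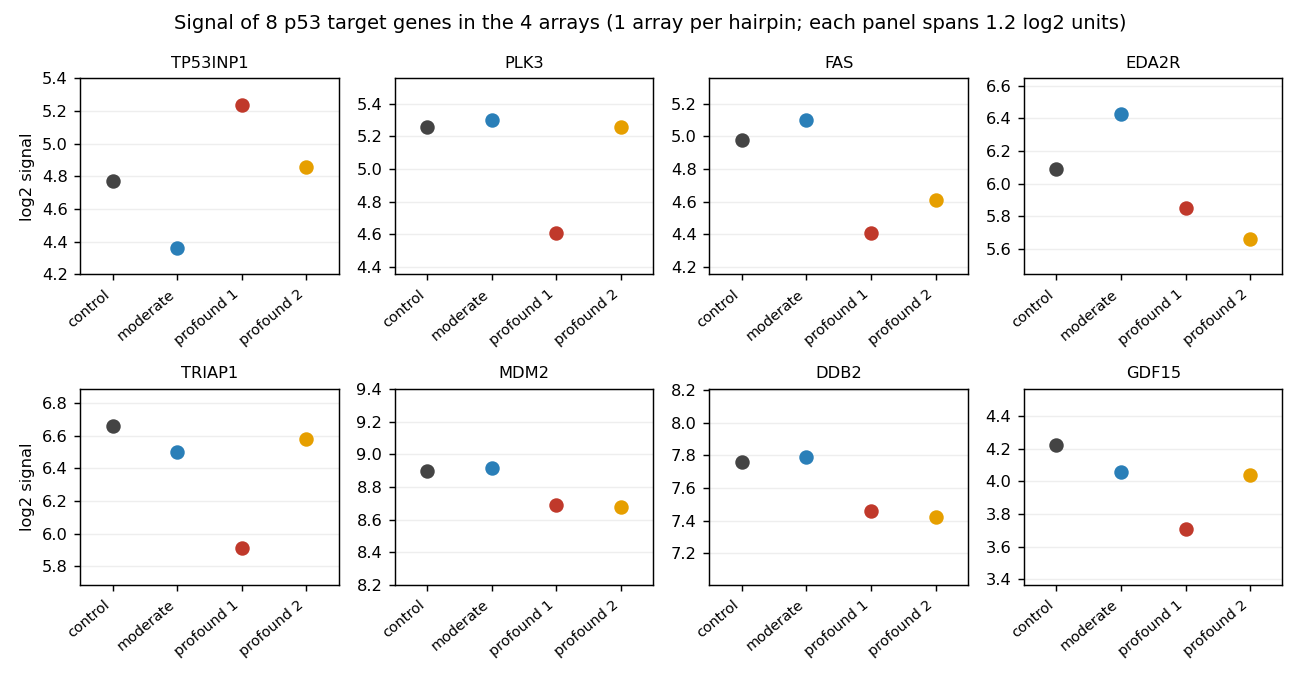
Log2 signal (vertical axis) of TP53INP1, PLK3, FAS, EDA2R, TRIAP1, MDM2, DDB2 and GDF15 in the 4 arrays (horizontal axis), 1 point per array and the same span of log2 units in each panel; no error can be drawn for 1 array per hairpin. PLK3 (4.61) and TRIAP1 (5.91) are lowest in profound 1, the only array in which they are 1.5-fold below control. FAS, EDA2R, MDM2 and DDB2 read below control in both profound arrays, by less than 1.5-fold. In profound 1 the differences of EDA2R and MDM2 are within the spread of their classes.

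Among death effectors and survival factors, TRIAP1 read 6.66 in control, 6.50 in moderate, 5.91 in profound 1 and 6.58 in profound 2. Like PLK3 it was lowest in profound 1, at -0.75 log2 units from control (1.68-fold lower), -0.59 from moderate and -0.67 from profound 2. Its class had spreads of 0.28, 0.25 and 0.26, and 2.43%, 3.40% and 2.30% of the class were as low. TRIAP1 was also below control in moderate and profound 2, at -0.16 and -0.08, where the spreads were 0.16 and 0.18. AEN, a p53-induced nuclease, read 6.09, 6.03, 5.73 and 6.15, and PHLDA3, an inhibitor of AKT, 4.43, 4.21, 4.02 and 4.35. Both were lowest in profound 1, at -0.36 and -0.41 from control, with 12.7% and 6.42% of their classes as low.

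Of the other members of this role, none differed by 1.5-fold between any arrays. APAF1, the scaffold of the apoptosome, lay between 7.88 and 8.03 in the 4 arrays. PIDD1, which assembles a caspase-2 platform, lay between 5.33 and 5.67, PERP, a membrane protein of cell junctions, between 3.78 and 4.01, and RPS27L, a ribosomal protein relative, between 4.15 and 4.41. SPATA18, a mitochondrial quality-control gene, read 2.57, 2.55, 2.23 and 2.78 and so stayed below the table median throughout.

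Of the metabolic and secreted members, GDF15, a stress-induced secreted cytokine, read 4.22 in control, 4.06 in moderate, 3.71 in profound 1 and 4.04 in profound 2. It was lowest in profound 1 (-0.51, 3.53% of its class) and below control in each RUNX1 hairpin array. STEAP3, an iron reductase, read 6.48, 6.46, 6.11 and 6.64, and was also lowest in profound 1 (-0.36, 12.4%). CD82, a tetraspanin, read 6.67, 6.92, 6.76 and 7.08, lowest in control and 0.41 above it in profound 2 (1.47% of its class). TIGAR, which lowers glycolytic flux, lay between 6.06 and 6.38 and was lowest in profound 2. SESN1, a sestrin that restrains mTORC1, lay between 5.25 and 5.57, and TP53I3, a quinone reductase, between 4.36 and 4.61.

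**Figure D3:**
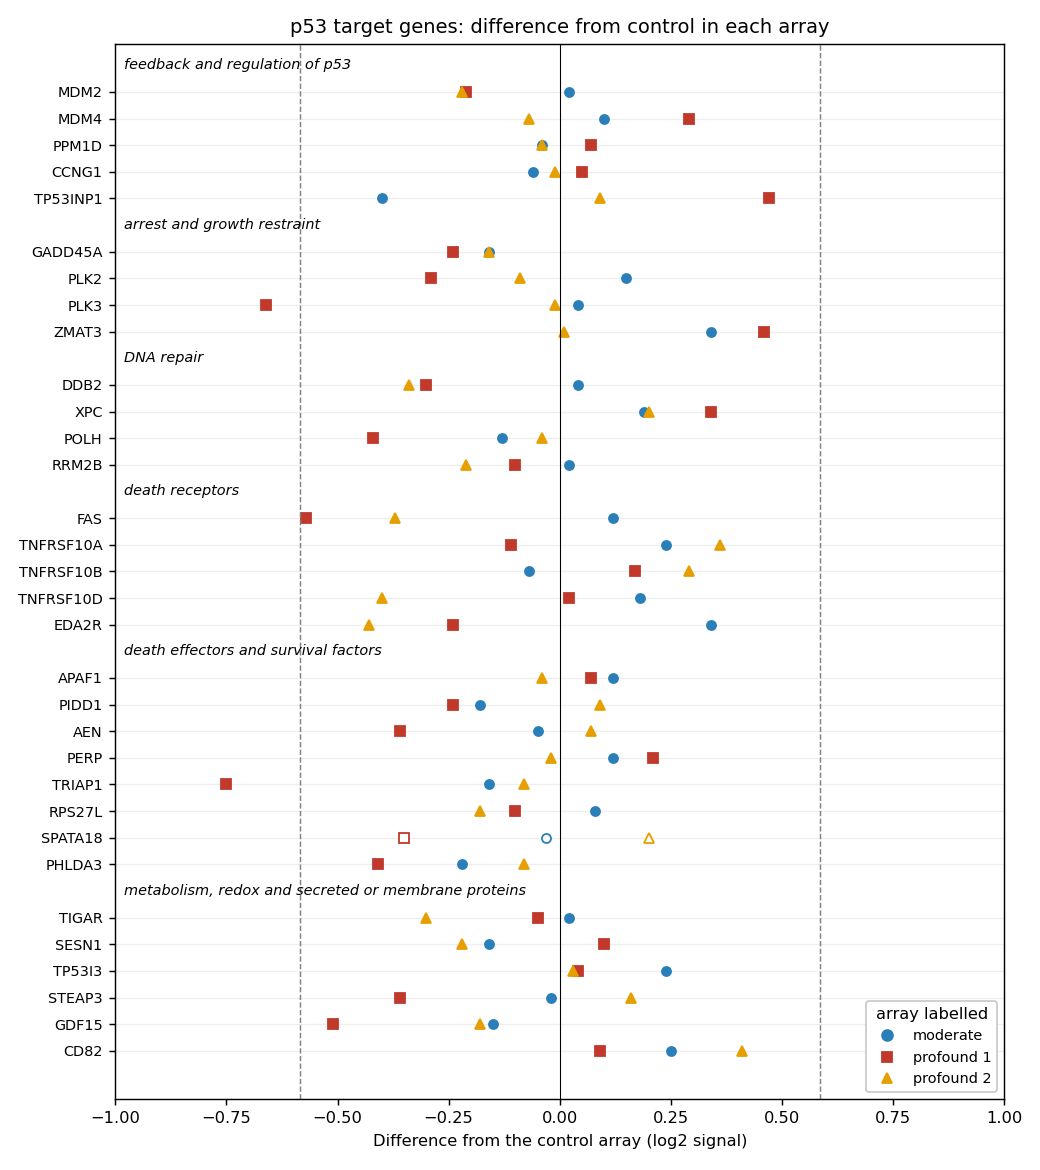
Difference from the control array in log2 signal (horizontal axis) of the 32 members with a probe set of their own, by role (rows), in the arrays labelled moderate (circles), profound 1 (squares) and profound 2 (triangles); open symbols are SPATA18, which did not pass the filter, and dashed lines mark 1.5-fold. PLK3 and TRIAP1 in profound 1 are the points beyond a dashed line.

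The role groups can be set side by side by their medians against control, over members that passed the filter. Feedback genes (5) were at -0.04, 0.07 and -0.04 in moderate, profound 1 and profound 2, and the 4 arrest genes at 0.09, -0.26 and -0.05. Repair genes (4) were at 0.03, -0.20 and -0.12. Death receptors (5, with EDA2R and the decoy TNFRSF10D counted in) were at 0.18, -0.11 and -0.37. Death effectors and survival factors (7) were at -0.05, -0.24 and -0.04. The 6 metabolic, secreted and membrane members were at -0.01 in profound 1 and -0.07 in profound 2. The lowest group median was that of the arrest genes in profound 1 and that of the death receptors in profound 2, each over few genes that differ among themselves. In profound 2, FAS, TNFRSF10D and EDA2R were below control, whereas TNFRSF10A and TNFRSF10B, which signal death, were above it. These differences share the control array and are not independent.

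Over the 4 arrays, 5 of 31 members (16.1%) spanned at least 1.5-fold from lowest to highest: TP53INP1, PLK3, FAS, EDA2R and TRIAP1. Of all tested genes 13.5% did, and the median span was 0.38 log2 units for members and 0.31 for all genes. The array labelled moderate held the highest value of 12 members (38.7%, against 22.9% of all genes). Profound 1 held the lowest of 12 (38.7%, against 32.4%) and profound 2 the lowest of 11 (35.5%, against 24.4%). In both profound arrays 14 members were below control (45.2%, against 32.5%) and 6 above it (19.4%, against 31.9%). Those above were TP53INP1, ZMAT3, XPC, TNFRSF10B, TP53I3 and CD82. With moderate counted in, 5 members were below control in all 3 RUNX1 hairpin arrays (16.1%, against 22.5% of all genes). Above control in all 3 were 4 members (12.9%, against 23.8%). These counts take any size of difference.

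The profound arrays were then set directly against each other, which leaves the control array out. PLK3 and TRIAP1 were lower in profound 1 at 1.5-fold, as were 3.05% of all tested genes, and no member was higher (2.26%). The 5 feedback genes were all higher in profound 1, by 0.01 to 0.38 (49.1% of all genes were, by any amount). MDM2, CCNG1 and PPM1D were within the spreads of their classes (0.01, 0.06 and 0.10, spreads 0.21, 0.21 and 0.24). MDM4 and TP53INP1 were beyond theirs (0.36 and 0.38, spreads 0.21 and 0.28). Against moderate, 3 members were at least 1.5-fold lower in profound 1, PLK3, FAS and TRIAP1 (3.51% of all genes). TRIAP1 lost this call after cyclic loess (-0.57) and median centring (-0.56).

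The other genes of the pathway were read from 3 further lists. Of 17 measurable p53 targets outside the member list, 0 were 1.5-fold different in moderate or profound 2, and in profound 1 there were 2 higher and 1 lower (2.76% and 4.05% of all tested genes). CDKN1A, which encodes the cell-cycle inhibitor p21, read 5.59 in control, 5.56 in moderate, 5.64 in profound 1 and 5.62 in profound 2. Its differences from control were -0.03, 0.05 and 0.03. The death genes PMAIP1 (6.45 to 6.61) and BBC3 (4.49 to 4.82) showed no value above control by more than 0.08, and BAX read 7.87 in control against 7.42 in profound 1.

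The members of that list that passed the size rule were BCL6, PRDM1 and SESN2. BCL6, a transcriptional repressor best known from germinal centre B cells, read 4.30, 4.86, 5.52 and 4.30. PRDM1, another transcriptional repressor, read 4.78, 5.30, 5.71 and 4.73. Both were highest in profound 1 and at the control value or just below it in profound 2. SESN2, a sestrin that also responds to amino acid and endoplasmic reticulum stress, read 5.31, 5.13, 4.58 and 5.60 and was at -0.72 from control in profound 1.

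Of 13 measurable p53 regulators and upstream kinases, 1 passed, in profound 1 alone: CHEK1, a checkpoint kinase of replicating cells (6.82% of all tested genes passed there in either direction). It read 7.24 in control, 6.90 in moderate, 6.32 in profound 1 and 6.70 in profound 2. CHEK2, the kinase of double-strand break signalling, lay between 5.19 and 5.35, and USP7, which removes ubiquitin from MDM2 and p53, between 9.14 and 9.20. ATM and TP63 were matched to no probe set of their own.

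Genes that p53 can repress through p21 and the DREAM complex, most of them cell-cycle genes, were listed with earlier results of these data known. They differed more than the p53 targets in profound 1. There 9 of 14 were at least 1.5-fold lower (median -0.60) and none higher, where 4.05% of all tested genes were lower, whereas 0 passed in moderate and profound 2 (both medians -0.11). The cyclin gene CCNB1 read 7.98, 7.74, 7.14 and 7.72, CDK1 8.56, 8.44, 7.68 and 8.55, and the proliferation antigen gene MKI67 10.58, 10.32, 9.70 and 10.25. All are lowest in profound 1, the array in which PLK3 and TRIAP1 were low and CDKN1A and MDM2 were not raised. The part of lower cell-cycle expression in the values of PLK3 and TRIAP1 was not tested.

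**Figure D4:**
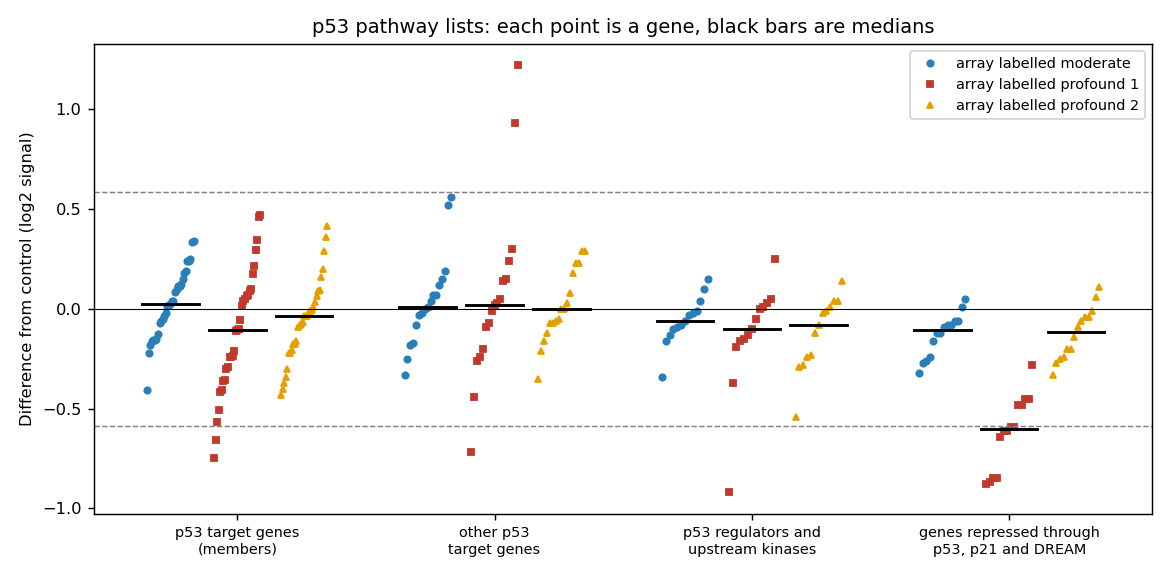
Difference from the control array in log2 signal (vertical axis) for the 31 p53 target genes, 17 other p53 targets, 13 p53 regulators and 14 genes repressed through p53, p21 and DREAM (horizontal axis), with 1 point per gene for each array and black bars at the medians; dashed lines mark 1.5-fold. The last list in profound 1 has its median at -0.60, while the p53 target genes have theirs at -0.10. The lists were chosen with earlier results of these data known.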

How the data were processed

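Expression was read on 4 Affymetrix whole-transcript arrays, 1 per hairpin. The deposited table holds log2 signals of 53617 probe sets made by the authors. The submitters' processing notes name RMA, Affymetrix Expression Console (1.3.1) and the Transcriptome Analysis Console (1.0); a genome build is not given in the sources used here. RMA equalises the arrays' distributions, so a shift of most genes cannot be seen, and it compresses differences of dim probe sets. Depth has no meaning for arrays, and their number limits the precision.

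Groups follow the genotype field, and 0 value columns were left unused. Probe sets with 1 gene symbol (23871) named genes, with symbols updated through RefSeq's gene table; 1842 list several symbols and 27904 none. Symbols of small RNAs, uncharacterised loci, numbered reading frames, antisense transcripts and immune receptor segments were left out. Calls rest on size (1.5-fold), because 1 array per group allows no test. Recovery was checked on simulated arrays for changes of 1 log2 unit or more, not for changes at the 1.5-fold limit. No member spanned that much (at most 0.88). The simulated noise was set from moderate against control (robust SD 0.169), which is less than the robust SD of profound 1 against control (0.265). All members are named, those spanning 1.5-fold with every value. Members and lists were chosen with earlier results of these data known, and the paired half-site search and the 4 printed promoters after values and matches were seen. Python 3.11.15, pandas 2.3.3 and limma 3.58.1 (cyclic loess) were used. Alternatives changed the dim-gene filter, normalization, probe-set rule, fold, list summary and gene class.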

Additional observations from a re-analysis of the deposited data

How the results depend on the processing

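Medians of the p53 target genes were recomputed under 10 settings in 6 comparisons. The largest move among these 60 values was 0.07 log2 units, and every move was smaller than the robust SD of that comparison. A change of fold could not move a median, nor could the probe-set rule, because each measured member has a single probe set of its own. Counts of members past the size rule depended on the fold. They stayed the same or within 1.5 times under 3 other filters on dim genes, cyclic loess, median centring and protein-coding genes alone. The mean of a gene's probe sets and the mean of the list gave the same counts and could not have changed them. In profound 1 against moderate the count was 3 in place of 4 after cyclic loess and after centring, where TRIAP1 was at -0.57 and -0.56. At 2-fold, 0 members remained in profound 1 against control, profound 1 against profound 2, profound 1 against moderate and profound 2 against moderate. At 0.32 log2 units (a ratio of 5 to 4) the counts were 3 (moderate against control), 11 (profound 1 against control), 6 (profound 2 against control), 15 (profound 1 against profound 2), 10 (profound 1 against moderate), 7 (profound 2 against moderate) and 1 (both profound arrays against control). The shares of all genes at that size were 10.8%, 25.1%, 14.1%, 23.7%, 21.9%, 16.0% and 5.64% in the same order. The differences of TP53INP1, PLK3, FAS, EDA2R and TRIAP1 could change only under cyclic loess and median centring, and there they kept their direction where called. The other settings leave the difference of a gene with a single probe set as it is. No paired analysis was possible because the arrays share a single replicate number, and no array could be left out because each group has 1.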
